A study of Mus musculus with 64 samples.

Results

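The PDGF (platelet-derived growth factor) ligands and receptors were described in mouse pancreatic tumor cells grown alone or with fibroblasts. The members were the 6 genes of the family taken by symbol from the count table, namely the ligands Pdgfa, Pdgfb, Pdgfc and Pdgfd and the receptors Pdgfra and Pdgfrb, out of 39017 genes listed. Bulk polyA RNA-seq gave 64 libraries, from 8 tumor lines in mono-culture and in coculture, with 4 libraries for each line and culture. All lines were on a mixed C57BL/6 background, and no age applies to cultured lines. The 7 clones, named E, H, K, M, N, T and V, came from tumors of KPC mice, which carry Trp53 +/R172H and Pdx1-Cre, a Cre driven by the Pdx1 promoter of the pancreatic lineage. The study's results derive the 7 clones from 1 tumor, while its methods name KPC mice. KPC1 is a further pancreatic tumor line known here only from its label. In coculture, tumor cells were kept for 48 h with fibroblasts, whose source the labels do not name, and were then recovered by sorting on tumor-cell GFP. The labels do not say whether mono-cultures went through the same sort, so sorting and coculture cannot be told apart. Nothing says that replicates were separate cultures, so p-values measure the spread between these libraries, which may be technical. Each line is 1 clone or line, so the lines are the replicates wherever the response over the lines is given.

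PDGF ligands are secreted dimers that bind receptor tyrosine kinases and drive growth and migration of mesenchymal cells. The A and B chains are cut by furin-like convertases inside the cell, while the C and D chains carry a CUB domain that is removed outside it. The alpha receptor binds the A, B and C chains and the beta receptor binds mainly B and D. In pancreatic tumors the family is known for ligands made by tumor cells and receptors carried by fibroblasts and pericytes.

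Library totals ran from 11178721 to 21333683 counts, and all 64 libraries resembled most closely a replicate of their own line and culture by correlation. The pancreatic epithelial identity of the cells was visible in Krt8 at 688 to 1280 CPM (counts scaled to library size, with edgeR's TMM factors) and Krt18 at 968 to 1546 CPM across the 8 lines in mono-culture. Epcam was at most 0.370 CPM in any line, and Cdh1 ran from 0.998 to 304 CPM. Of 20 fibroblast markers, 18 could be tested over the lines, 15 were higher in coculture, 1 was lower and 2 did not pass the test. Their summed level was 74.6 to 339 CPM in the mono-culture libraries and 324 to 2187 CPM in the coculture libraries. Thy1 was at 0 in all 32 mono-culture libraries. Postn was at 0 in 29 of them and between 6.62 and 134 CPM in all 32 coculture libraries. Lum was at 0 in mono-culture too, but held 50 counts over the 32 coculture libraries and was at 0 in 12 of them. Other listed markers were present in mono-culture. Line means there reached 92.0 CPM for Prrx1, 74.2 for Col3a1, 101 for Fbln1 and 47.5 for Twist2. The summed level of these markers rose with coculture in every line, though not every marker did. The part of these fibroblast transcripts in the coculture results below was not tested. In bulk RNA, fewer cells of a type and less RNA per cell cannot be told apart.

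The promoter sequences shown are those of Pdgfc, the ligand whose level over the lines moved least in coculture, and of Pdgfra, the receptor with the widest span among the lines. RefSeq (GRCm38.p6) entries were read for 4 of the 6 members. The 250 bases before the annotated start are printed 5′ to 3′, for Pdgfc at chr3:81036166-81036415 and for Pdgfra at chr5:75152001-75152250, both on the plus strand. Capitals would mark the GC box GGGCGG or its reverse CCGCCC, and neither window holds one.
Pdgfc: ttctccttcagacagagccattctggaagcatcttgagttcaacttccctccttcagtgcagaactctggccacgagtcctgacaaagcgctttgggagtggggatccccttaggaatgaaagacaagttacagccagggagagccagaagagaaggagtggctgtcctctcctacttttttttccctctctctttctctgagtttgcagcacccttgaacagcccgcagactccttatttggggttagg
Pdgfra: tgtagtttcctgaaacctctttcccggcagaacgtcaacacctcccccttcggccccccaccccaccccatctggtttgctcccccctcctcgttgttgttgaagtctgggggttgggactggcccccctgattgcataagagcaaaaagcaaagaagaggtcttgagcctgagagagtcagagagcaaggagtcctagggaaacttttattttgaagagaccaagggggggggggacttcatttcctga
Over all 32851 promoter windows of this length, 32.7% held a GC box on either strand and 22.8% held TATAA on either strand. The Pdgfc window had 50.8% G or C with 3 CpG pairs, and the Pdgfra window had 54.4% with 4. Pdgfa has 2 annotated starts, whose windows held 1 and 2 GC boxes, 66.4% and 72.4% G or C and 19 and 28 CpG pairs. These letters are a description of the windows, not of binding.

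The members lie on 5 chromosomes of mouse build GRCm38 in the GENCODE M21 annotation. Pdgfa is at chromosome 5, 138976014 to 138997370, on the minus strand, and Pdgfra is at chromosome 5, 75152292 to 75198215, on the plus strand. Pdgfb is at chromosome 15, 79995874 to 80014977, on the minus strand, and Pdgfc is at chromosome 3, 81036416 to 81214040, on the plus strand. Pdgfd is at chromosome 9, 6168584 to 6378850, and Pdgfrb is at chromosome 18, 61045150 to 61085061, both on the plus strand. Exons of Pdgfa share bases with the antisense gene 6330403L08Rik, which held 6317 counts over the 64 libraries beside 16726 for Pdgfa. Libraries were made with a strand-specific kit, but the strand setting of the counting is not given in the sources used here, so reads of the pair cannot be told apart. Gm16000, antisense to Pdgfc, held 21 counts beside 49985 for Pdgfc.

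Pdgfb was the leading ligand transcript in these tumor cells. On the length-scaled RPKM (reads per kilobase and library size) of the authors, Pdgfb had the highest mean of the ligands in 8 of 8 lines in mono-culture and in 8 of 8 lines in coculture. In mono-culture its mean was 46.4 ± 7.38 RPKM (SD, n = 4) in V beside 16.4 ± 1.28 for Pdgfc and 8.49 ± 1.37 for Pdgfa. In M it was 4.74 ± 0.850 RPKM beside 4.69 ± 0.576 for Pdgfc, a gap far inside the spread of the libraries. The ranges of mean ± SD of Pdgfb and Pdgfc overlapped in E and T as well. Pdgfb made up 38.7% of the summed ligand RPKM in M and 66.9% in KPC1, the extremes in mono-culture, and 50.3% in E to 66.6% in V in coculture.

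**Figure D1:**
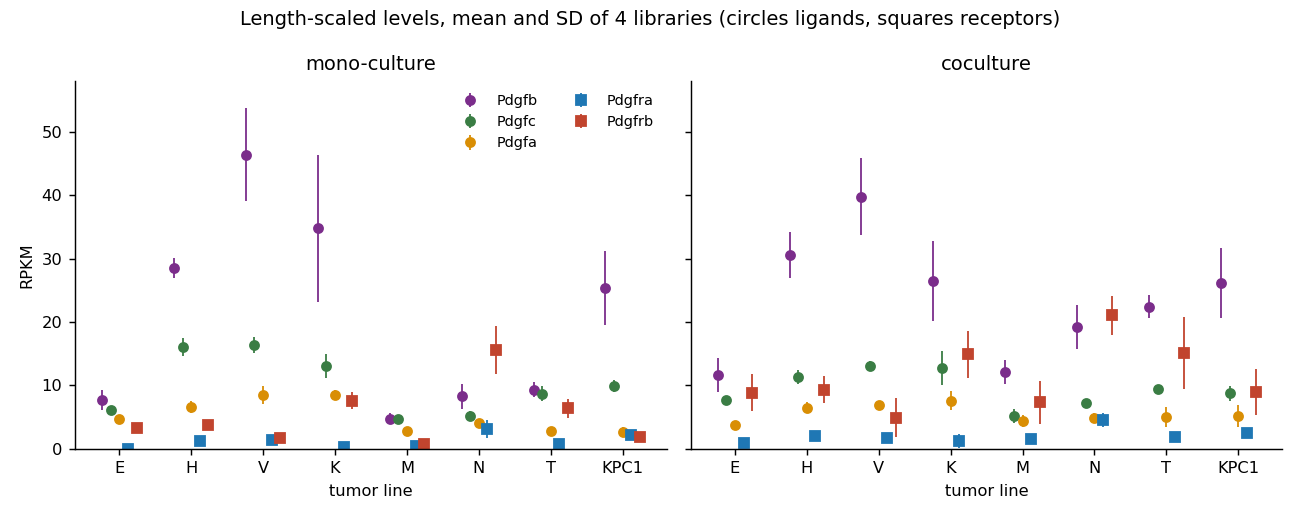
Mean RPKM of 5 members (y axis, linear, in reads per kilobase and library size) in each tumor line (x axis) in mono-culture (left) and coculture (right). Circles are ligands, squares are receptors and bars are the SD of 4 libraries. Pdgfb stands above the other ligands in H, V, K and KPC1 in both cultures, and Pdgfrb is the highest of the members in N in both cultures.

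The receptors were present in the tumor cells grown alone, with Pdgfrb above Pdgfra in most lines. On the RPKM scale Pdgfrb had the higher mean in 7 of 8 lines in mono-culture, and in KPC1 the ratio of Pdgfrb to Pdgfra was 0.839. In mono-culture that ratio reached 76.9 in E and 29.8 in K, where Pdgfra was lowest. In coculture Pdgfrb had the higher mean in 8 of 8 lines, with ratios from 2.84 in V to 11.8 in K. The N line in mono-culture had 15.5 ± 3.79 RPKM (SD, n = 4) of Pdgfrb, the highest receptor level among the 8 lines, beside 8.28 ± 1.94 RPKM of Pdgfb.

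The lines differed in every member that could be tested in mono-culture. Across the 64-library fit, 5 of 5 tested members differed among the 8 lines, with adjusted p between 3.38e-23 for Pdgfb and 1.45e-14 for Pdgfa. Among all genes tested, 95.1% differed, so the count does not set the family apart. Pdgfd was under the count filter in that fit.

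Pdgfb separated the lines into a high and a low set in mono-culture. Mean levels were 142 CPM in V, 113 in K, 91.4 in H and 77.8 in KPC1, and 29.1 in T, 24.8 in N, 23.4 in E and 15.1 in M. No pair of neighbours among V, K, H and KPC1 differed beyond the libraries' spread. KPC1 was above T by 1.42 on the log2 scale (SE 0.21, adjusted p = 6e-08). Among the low lines T, N and E did not differ as neighbours, and E was above M by 0.64 on the log2 scale (SE 0.21, adjusted p = 0.0119). The highest and lowest line means were 9.46-fold apart.

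Pdgfc and Pdgfa had narrower ranges. Pdgfc ran from 85.1 CPM in H to 24 CPM in M, 3.54-fold apart, with the order H, V, K, KPC1, T, E, N, M. The steps from K to KPC1 (log2 difference 0.49, SE 0.13, adjusted p = 0.00111) and from T to E (0.53, SE 0.13, adjusted p = 0.00162) passed the test, and the other neighbours did not differ. Pdgfa ran from 27.7 CPM in K to 8.17 CPM in KPC1, 3.39-fold apart. Its steps from H to E (log2 difference 0.56, SE 0.20, adjusted p = 0.0160) and from N to M (0.45, SE 0.21, adjusted p = 0.0599) passed.

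The receptors had the widest ranges. Pdgfra ran from 31.7 CPM in N to 0.472 CPM in E, 67.2-fold apart. In E the 4 mono-culture libraries held 0.185, 0.522, 0.376 and 0.805 CPM, from a summed count of 31 reads. K stood above E by 2.65 on the log2 scale (SE 0.57, adjusted p = 8.45e-05), and KPC1 above V and T above M also passed the test. Pdgfrb ran from 87.0 CPM in N to 4.19 CPM in M, 20.8-fold apart. N stood above K by 0.90 (log2, SE 0.31, adjusted p = 0.0117), while K and T, H and E, and KPC1 and V did not differ as neighbours.

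**Figure D2:**
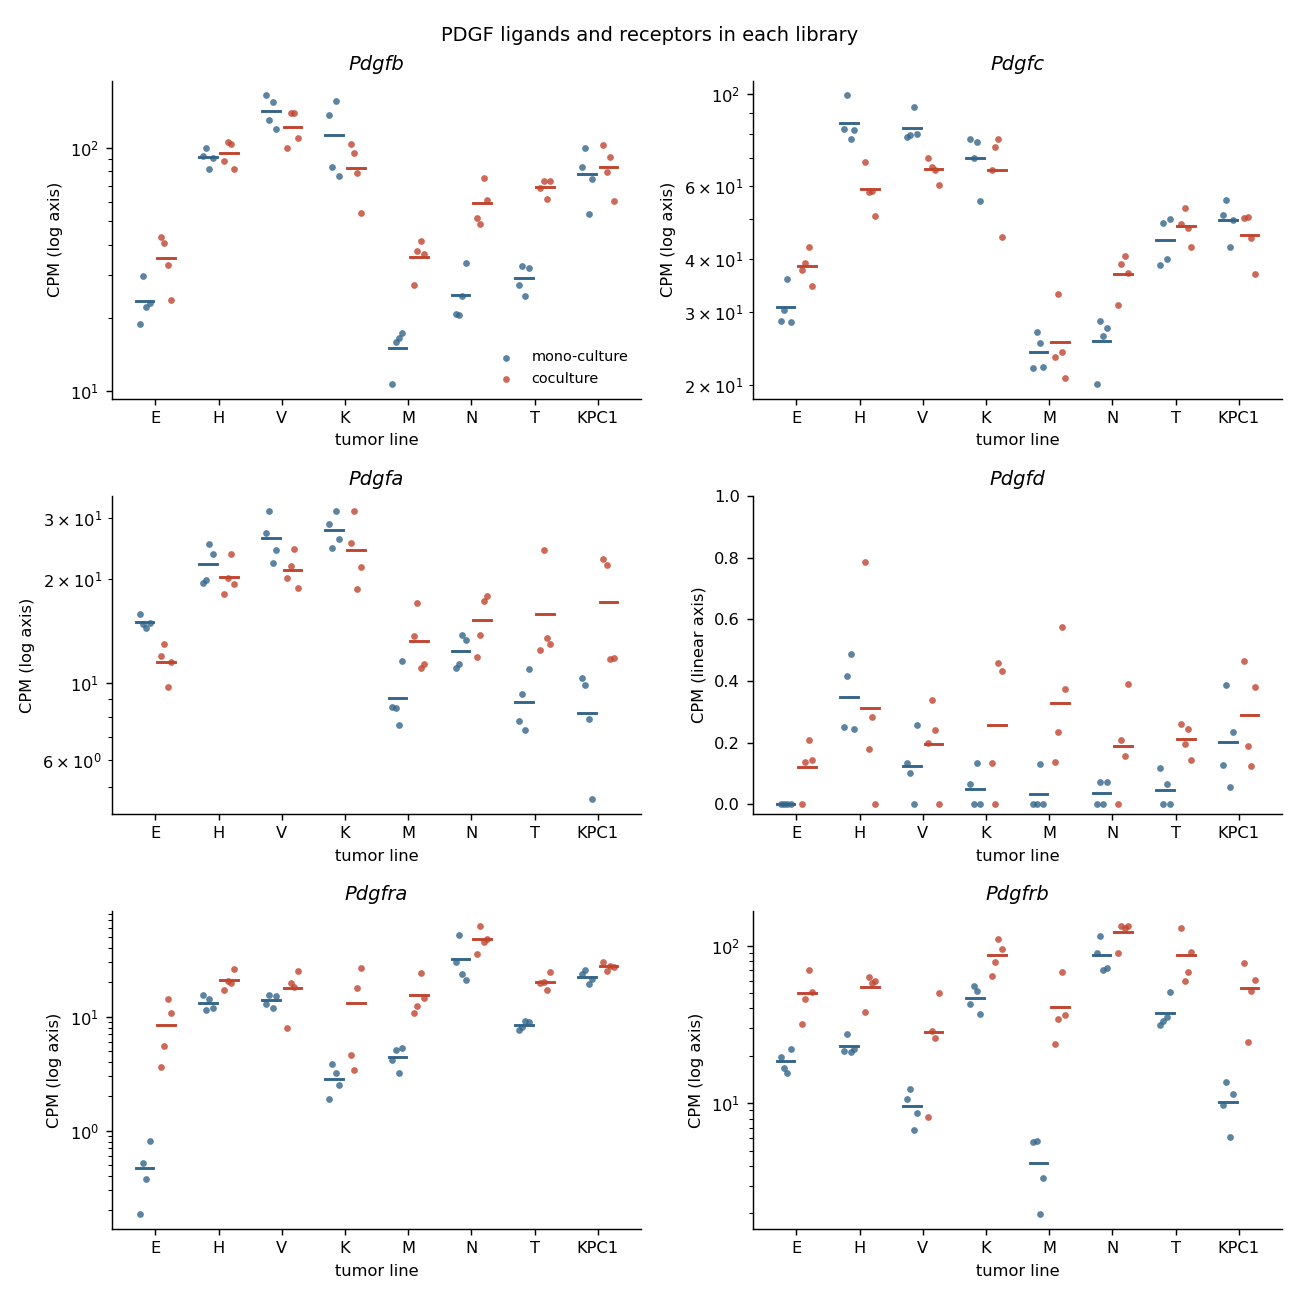
CPM (y axis, TMM-scaled, log axis except for Pdgfd) of the 6 members in every library of each tumor line (x axis), in mono-culture (blue) and coculture (red). Points are libraries and bars are means of 4. The lines spread over 67.2-fold in Pdgfra and 20.8-fold in Pdgfrb in mono-culture, and the coculture means of both receptors stand above the mono-culture means in all 8 lines.

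Coculture was compared with mono-culture over the 8 lines, on counts summed per line and culture, to ask what the family did beside fibroblasts. 4 of the 6 members passed the test at an adjusted p under 0.1, all of them higher in coculture, against a background of 54.6% of all genes tested (27.2% higher and 27.4% lower). Both receptors rose, Pdgfrb by 1.54 on the log2 scale (SE 0.28, adjusted p = 0.00276) and Pdgfra by 1.31 (SE 0.38, adjusted p = 0.0195). Their mean CPM was higher in coculture in 8 of 8 lines, as it was for 14.6% of all genes tested. Pdgfb rose by 0.48 (SE 0.22, adjusted p = 0.0933) with a higher mean in 6 of 8 lines. That call was lost when E, M, N or T was left out (adjusted p = 0.164 to 0.211), and without replicate 2 or replicate 3 (adjusted p = 0.124 and 0.101).

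Pdgfa and Pdgfc did not pass over the lines. Pdgfa differed by 0.20 on the log2 scale (SE 0.17, adjusted p = 0.365) and Pdgfc by -0.0091 (SE 0.11, adjusted p = 0.951), each with a higher mean in 4 of 8 lines. A fit on the 64 libraries with line as a covariate called Pdgfa higher (0.21, adjusted p = 0.0503). Pdgfd, the D-chain ligand of the beta receptor, passed with a log2 change of 1.44 (SE 0.45, adjusted p = 0.0258) from a total of 53 reads in mono-culture and 115 in coculture. It was at or under 3 reads in 5 of 8 lines in mono-culture, and its per-line sums in coculture were 7 to 21 reads. It was called in all 15 alternatives that could test it, over 0.059 (limma, pseudocount 1) to 1.88 (sheet A alone), and it was under the filter without any 1 replicate and in the fits on the 64 libraries.

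Within each line the response was read from the 64-library fit. Of 40 tests, 5 members in 8 lines, 22 passed, 20 higher and 2 lower, against 45.6% of all tests in the same fit. The 4 coculture libraries lay wholly above the 4 mono-culture libraries for 16 of 40 (18.3% of all genes and lines) and wholly below for 3 of 40 (16.9%). The response differed among the lines for 5 of 5 members, as for 71.3% of all genes, with adjusted p from 1.04e-07 for Pdgfb to 6.44e-05 for Pdgfc.

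**Figure D3:**
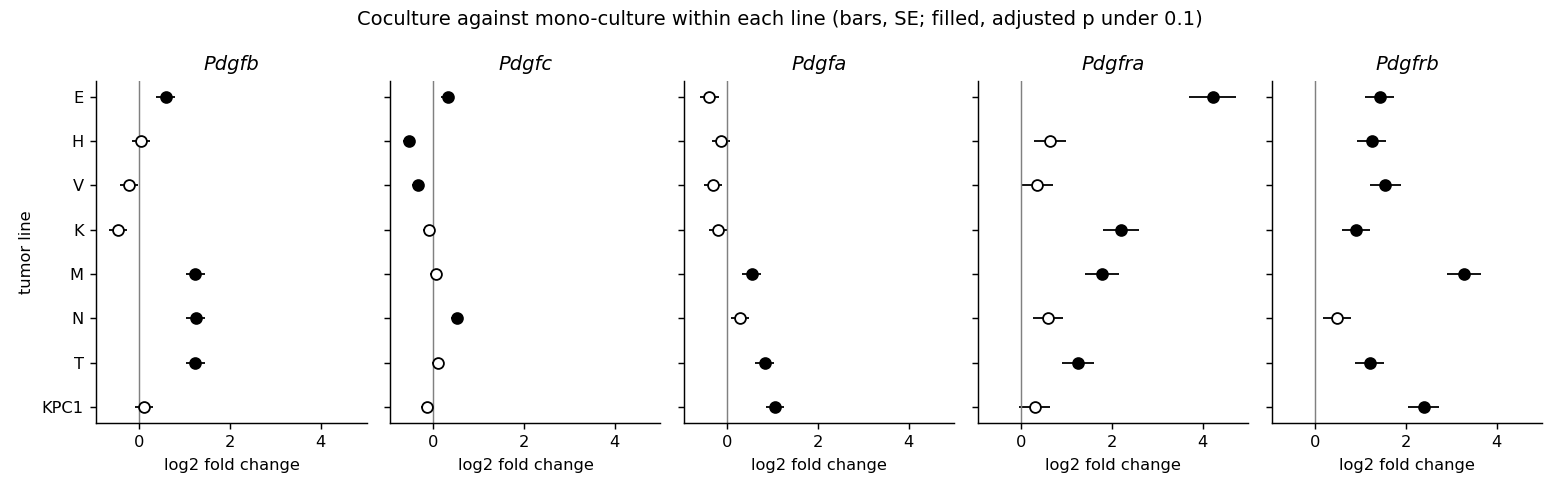
Log2 fold change of coculture over mono-culture (x axis, shared by the panels) of 5 members in each tumor line (y axis), from edgeR's quasi-likelihood fit. Bars are SE, and filled points have an adjusted p under 0.1. Pdgfb is filled in E, M, N and T only, and Pdgfrb in every line but N.

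Pdgfb rose in E, M, N and T, the lines with the lowest mono-culture levels, and did not pass in H, V, K or KPC1. In N the mono-culture libraries held 20.8, 20.5, 24.5 and 33.6 CPM and the coculture libraries 51.5, 48.7, 75.0 and 61.2. In T they held 27.3, 32.5, 24.6 and 32.1 CPM against 68.2, 73.2, 61.8 and 73.3. In M they held 10.7, 15.9, 16.4 and 17.3 CPM against 27.4, 37.5, 41.3 and 36.5. The coculture libraries of N, T and M all lay above their mono-culture libraries, with log2 changes of 1.25 (SE 0.21, adjusted p = 7.77e-06) in N, 1.25 (SE 0.21, adjusted p = 1.04e-06) in T and 1.25 (SE 0.21, adjusted p = 1.05e-05) in M.

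In E Pdgfb held 18.8, 29.7, 22.2 and 23 CPM in mono-culture and 43.1, 40.8, 32.9 and 23.6 in coculture. The groups overlapped, through coculture library 4, and the log2 change was 0.59 (SE 0.21, adjusted p = 0.0143). It was 0.36 (adjusted p = 0.21) without replicate 1. In K, a high line, Pdgfb held 137, 83.7, 156 and 76.7 CPM in mono-culture and 104, 95.2, 78.9 and 54.2 in coculture, overlapping, with a log2 difference of -0.45 (SE 0.20, adjusted p = 0.125). Without replicate 2 the K difference was -0.64 and passed, lower in coculture (adjusted p = 0.0678).

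The span of the lines in Pdgfb was 9.46-fold in mono-culture and 3.48-fold in coculture, where means ran from 35.1 CPM in E to 122 CPM in V. The SD of the log2 line means was 1.23 in mono-culture and 0.65 in coculture. The same mono-culture values set the order of the lines and enter the changes, so the order and the changes are not separate measurements.

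Pdgfc moved in both directions. In N it held 20.1, 28.5, 26.2 and 27.4 CPM in mono-culture and 31.1, 39, 40.7 and 37.1 in coculture, all above (log2 change 0.53, SE 0.14, adjusted p = 0.00224). In H it held 82.0, 98.9, 77.7 and 81.6 CPM against 68.5, 58.2, 58.4 and 50.7, all below (log2 change -0.53, SE 0.13, adjusted p = 0.0013). It also rose in E (0.33, adjusted p = 0.0364) and fell in V (-0.33, adjusted p = 0.0290), and both of these calls were lost when 1 replicate was left out, replicate 1 or 2 for E (adjusted p = 0.154 and 0.120) and replicate 3 for V (adjusted p = 0.176).

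Pdgfa rose in KPC1, T and M. In KPC1 it held 10.4, 9.85, 7.86 and 4.62 CPM in mono-culture and 22.8, 22, 11.8 and 11.8 in coculture, all above (log2 change 1.06, SE 0.21, adjusted p = 0.000123). In T the 4 coculture libraries, at 12.4, 24.3, 13.5 and 12.9 CPM, lay above the mono-culture libraries at 7.77, 9.29, 7.30 and 11 (log2 change 0.84, SE 0.21, adjusted p = 0.000478), and the change was 0.58 without replicate 2, whose coculture library stood highest (adjusted p = 0.0301). The rise in M (0.55, SE 0.21, adjusted p = 0.0368) was lost without replicate 1 or without replicate 2 (adjusted p = 0.135 and 0.228). In E the coculture libraries, at 12, 13, 9.71 and 11.5 CPM, lay below the mono-culture libraries at 15.9, 14.8, 14.4 and 14.9, and the test did not pass (log2 difference -0.38, SE 0.20, adjusted p = 0.107). The value in E was called lower with RLE scaling (-0.40, adjusted p = 0.0928), with DESeq2 (-0.40, adjusted p = 0.0874) and without replicate 2 (-0.47, adjusted p = 0.0712).

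Pdgfrb rose in 7 of 8 lines, most in M. In M it held 5.71, 5.72, 1.97 and 3.34 CPM in mono-culture and 23.7, 34.2, 68.6 and 36.6 in coculture, all above (log2 change 3.28, SE 0.37, adjusted p = 1.26e-09). In KPC1 it held 9.72, 13.6, 6.10 and 11.5 CPM against 77.9, 24.4, 51.5 and 61, all above (2.40, SE 0.34, adjusted p = 1.04e-06). In N, the line highest in mono-culture, it held 89.8, 115, 70.7 and 72.5 CPM against 90.1, 134, 129.6 and 134, which overlapped (0.49, SE 0.31, adjusted p = 0.239). In V the coculture library 1 held 8.16 CPM, inside the mono-culture range of 6.74 to 12.4, while libraries 2, 3 and 4 held 28.6, 25.9 and 50.2 (1.55, SE 0.34, adjusted p = 0.000117, and 1.91 without replicate 1). The rise in K (0.90, SE 0.31, adjusted p = 0.0404) was lost without replicate 3 or without replicate 4 (adjusted p = 0.157 and 0.236).

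Pdgfra rose in E, K, M and T. In E, from 0.185, 0.522, 0.376 and 0.805 CPM in mono-culture, it held 3.62, 5.55, 14.2 and 10.7 in coculture, all above (log2 change 4.21, SE 0.52, adjusted p = 2.04e-09). In K it held 1.88, 3.86, 3.22 and 2.50 CPM against 4.60, 3.41, 17.9 and 26.8, with coculture library 2 inside the mono-culture range (2.21, SE 0.40, adjusted p = 3.47e-05). The highest line for this receptor, N, held 30.1, 52.3, 23.6 and 21 CPM against 35.7, 62.7, 45.1 and 48.4, which overlapped (0.59, SE 0.33, adjusted p = 0.177). In H it did not pass (0.65, adjusted p = 0.138) and was called higher without replicate 1 (0.82, adjusted p = 0.0716). The span among the lines was 67.2-fold in mono-culture and 5.64-fold in coculture, and for Pdgfrb 20.8-fold and 4.32-fold.

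As differences of mean CPM, coculture minus mono-culture, Pdgfrb was higher by 18.6 in V to 49.5 in T with a median of 35.8 over the 8 lines. Pdgfra was higher by 3.99 in V to 16.2 in N with a median of 9.18. Pdgfb ran from -30.2 in K to 40 in T. All 8 differences were positive for the receptors, over line means in mono-culture that spanned 20.8-fold and 67.2-fold.

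The order of the coculture libraries within a line was set beside that of the fibroblast marker Postn, a secreted matrix protein. The library with the lowest Postn was the library with the lowest Pdgfrb in 8 of 8 lines, and the library with the highest Postn had the highest Pdgfrb in 6 of 8. Among the 14133 other genes in the fit on the 64 libraries, 0.219% shared the lowest library with Postn in 8 of 8 lines and 1.31% shared the highest in at least 6, and the median gene shared each in 2. For Pdgfra the counts were 6 of 8 for the lowest and 4 of 8 for the highest, reached by 2.94% and 14.9% of those genes. For Pdgfb they were 2 and 1, for Pdgfc 1 and 2, and for Pdgfa 2 and 1. Pdgfd, at a few reads per library, shared the lowest in 3 lines and the highest in 5. The library with the lowest Postn was replicate 1 in E, H, V, K, M and N, and replicate 2 in T and KPC1. The low extreme thus recurred by replicate number, and whether the agreements are independent across the lines is not known. The libraries of a line share that line and its coculture, and the part of fibroblast RNA in the receptor results was not tested.

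In the library of each line with the lowest Postn, between 6.62 and 29.4 CPM, Pdgfrb lay above all 4 mono-culture libraries in 6 of 8 lines, the exceptions being V and N. Pdgfra did so in 5 of 8 lines and Pdgfb in 4 of 8, namely E, M, N and T. The share of all genes that did so was not counted, so these counts cannot be read as particular to the members. Postn was at 0 in 29 of the 32 mono-culture libraries, so these coculture libraries still held the marker. The part of fibroblast RNA in them was not tested. In V that library held 8.16 CPM of Pdgfrb beside a mono-culture median of 9.65, and 8.03 CPM of Pdgfra beside a median of 14.0, with Postn at 6.62 CPM. In M it held 23.7 CPM of Pdgfrb beside a median of 4.53, with Postn at 21.2 CPM.

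**Figure D4:**
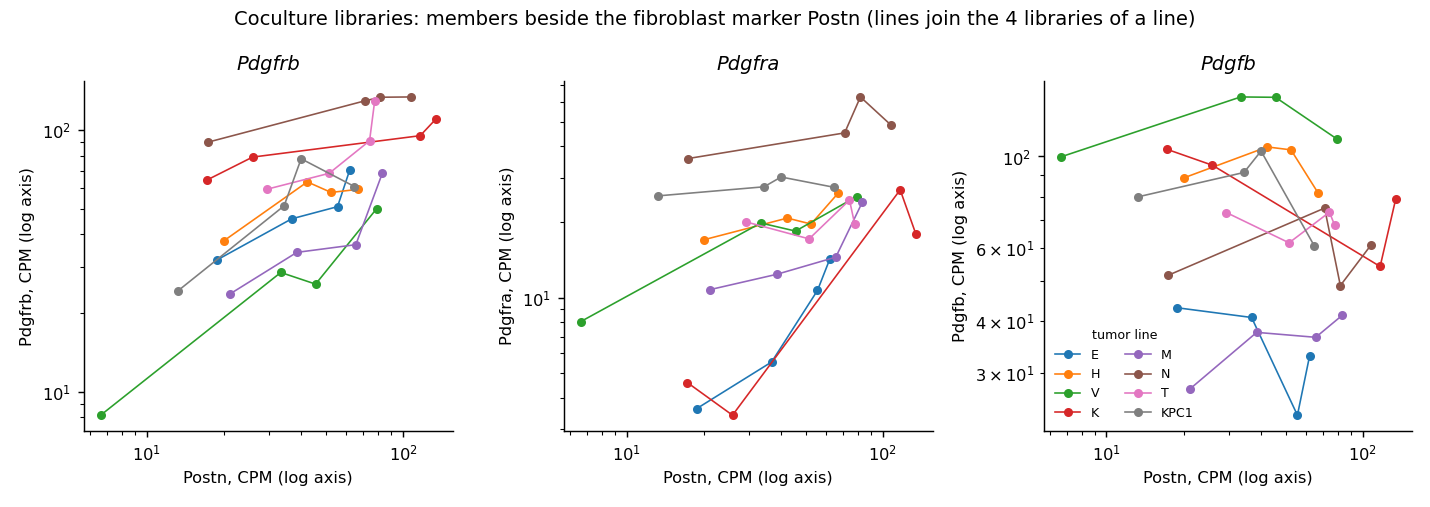
CPM of Pdgfrb, Pdgfra and Pdgfb (y axes, log) against CPM of Postn (x axes, log) in the 32 coculture libraries, with the 4 libraries of each tumor line joined in the order of Postn. The leftmost point of each line is its lowest for Pdgfrb in 8 of 8 lines and for Pdgfb in 2 of 8.

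Markers of mural, endothelial and immune cells were read in the same libraries. The pericyte and smooth muscle markers Rgs5 and Kcnj8 reached at most 0.132 and 0.03 CPM in any line mean. Notch3, also carried by mural cells, was higher in coculture by 4.58 on the log2 scale (SE 0.93, adjusted p = 0.00435), with line means of 0 to 6.26 CPM in mono-culture and 5.20 to 19.1 CPM in coculture. Cspg4, the other marker of that list that could be tested, did not pass (1.10, SE 0.57, adjusted p = 0.143). Des and Myh11 reached at most 0.322 and 0.276 CPM in any line mean. The summed level of the 6 markers of that list was 0 to 8.92 CPM in mono-culture and 2.14 to 33.4 CPM in coculture. Endothelial markers summed to 3.57 CPM at most in any library. Of the 5 immune markers, Cd3e was at 0 throughout and Cd68 was the single one that could be tested, higher by 1.37 (SE 0.35, adjusted p = 0.0108). Ptprc, Emr1 and Cd79a reached at most 0.118, 0.0178 and 0.123 CPM in any line mean, and Emr1 was at 0 in every coculture line mean. The line means of Cd68, a macrophage marker, were 3.91 to 18.5 CPM in mono-culture and 11.8 to 40.5 CPM in coculture, and the summed level of the 5 was 2.44 to 21 CPM and 9.17 to 57.6 CPM. Whether such cells were present, and their part in the receptor results, was not tested.

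The levels of the ligands followed each other across the 16 combinations of line and culture. Over mean log2 CPM, Pearson's r was 0.889 between Pdgfb and Pdgfc, 0.743 between Pdgfa and Pdgfb and 0.708 between Pdgfa and Pdgfc, and 0.431 between the receptors. These are descriptions over 16 points that share lines and library scaling. The genes closest to Pdgfb were Basp1 (r = 0.957), Plau (0.946) and Podxl (0.944), and those closest to Pdgfc were Shank3 (0.946), Sulf1 (0.917) and Msn (0.911). Pdgfa was closest to Micall2 (0.906), Gpr63 (0.899) and Map4 (0.875). For Pdgfra they were Gm13154 (0.933), Armcx2 (0.917) and Lca5 (0.878), and for Pdgfrb they were Nrbf2 (0.901), Nkx2-3 (0.853) and Dse (0.838).

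Of 11 proteins that process and bind PDGF chains 8 were tested over the lines, with 2 higher and 4 lower (median log2 change -0.29), where 27.2% of all genes tested were higher and 27.4% lower. Plau, the urokinase that can cut the D chain, rose by 0.65 (SE 0.19, adjusted p = 0.0180). Lrp1, a large endocytic receptor that associates with the beta receptor, changed by -0.42 (SE 0.11, adjusted p = 0.0111), and Nrp1, a coreceptor, by -0.79 (SE 0.21, adjusted p = 0.0132). The convertase Pcsk7 changed by -0.42 (SE 0.10, adjusted p = 0.00826), and its relative Furin, which cuts the A and B chains, by -0.41 (adjusted p = 0.0223). Over all genes tested the median was -0.00089.

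Of 19 genes of the receptor's signal relay, all tested, 9 were lower, 2 were higher and 8 did not pass, with a median log2 change of -0.12, beside the same 27.4% lower and 27.2% higher over all genes. The adaptor Gab1 changed by -0.86 (SE 0.17, adjusted p = 0.00400) and the adaptor Shc1 by -0.43 (SE 0.09, adjusted p = 0.00464). The adaptor Crkl changed by -0.15 (SE 0.04, adjusted p = 0.0216). Fyn, a kinase of the Src family, rose by 0.82 (SE 0.18, adjusted p = 0.00619). Of 8 brakes of the receptors, 2 were higher and 4 lower (median -0.06), against the same shares. The phosphatase Ptpn2 (0.41, adjusted p = 0.00359) and the adaptor Grb10 (0.48, adjusted p = 0.00497) rose, with a higher mean in 8 of 8 lines, as for 14.6% of all genes tested. The phosphatases Ptprj (-0.77, adjusted p = 0.00532) and Ptpn1 (-0.40, adjusted p = 0.0105) fell.

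Among related families, 3 of 9 VEGF ligands and receptors were higher and none lower, against 27.2% and 27.4% of all genes, with Pgf up by 1.6 (SE 0.33, adjusted p = 0.00454), Vegfa by 0.36 (SE 0.12, adjusted p = 0.0346) and Kdr by 1.13 (SE 0.44, adjusted p = 0.0591). Of the receptors of the same structural class and their ligands, 5 of 7 were tested, with 3 higher and 1 lower. Csf1, the macrophage growth factor, rose by 0.76 (SE 0.13, adjusted p = 0.00243), Il34, which binds the same receptor, by 1.04 (SE 0.33, adjusted p = 0.0285) and Flt3, the receptor for Flt3 ligand, by 1.10 (SE 0.26, adjusted p = 0.00810). Kitl, the Kit ligand, fell by 0.18 (adjusted p = 0.0957). Kdr and Flt3 were low, with median line means of 0.164 and 0.589 CPM in mono-culture and 0.498 and 1.41 CPM in coculture.

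The metabolic classes of the study, group 1 with E, H and V and group 2 with the other four clones, were not told apart by the family. In mono-culture 0 of 5 tested members passed in edgeR, and 0 had an unadjusted p under 0.05, against 0 of 14829 genes (766 at an unadjusted p under 0.05, and 117 called by DESeq2, of which 0 were members). Pdgfrb averaged 17.1 ± 6.84 CPM (SD, n = 3 clones) in group 1 and 43.9 ± 34 CPM (n = 4) in group 2, and the groups overlapped (log2 difference -1.36, SE 0.85, adjusted p = 0.888). Pdgfb averaged 85.7 ± 59.7 CPM in group 1 and 45.6 ± 45.5 CPM in group 2, also overlapping (0.89, SE 0.82, adjusted p = 0.906). The differences in response between the groups passed for 0 of 6 members (0.00637% of all genes, 1 of 15700). Pdgfa came closest, with a response lower by 0.64 in group 1 (SE 0.25, edgeR adjusted p = 0.656). It was the 1 member at an unadjusted p under 0.05, as were 1196 of all genes, and DESeq2 called 187 genes, of which 0 were members. Within the coculture libraries 0 of 6 members passed, and 1 gene did among all genes tested. Pdgfrb was lower there in group 1 by 0.90 (SE 0.38, edgeR unadjusted p = 0.0439, adjusted p = 0.581).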

How the data were processed

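Read counts per gene and RPKM values were deposited for 64 libraries. The submitters' processing notes name featureCounts, edgeR and build mm10, with no version and no role stated, and the aligner and the annotation are not given in the sources used here. RPKM values were taken as the authors computed them, with no further scaling. All columns of both tables matched a sample title, and 0 sample columns were left unused.

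The counts, as deposited, were tested with edgeR 4.0.16 (R 4.3.3), using TMM scaling, the edgeR filter on low counts, quasi-likelihood F-tests and Benjamini-Hochberg adjustment over all genes tested, at a threshold of 0.1 on the adjusted p. The response over the lines was fitted on counts summed per line and culture with line as a covariate. Responses within lines, differences among lines in mono-culture and their interaction came from a fit on all 64 libraries with a mean per line and culture. The groups of clones were compared on sums per clone, with KPC1 left out because it belongs to neither. CPM values are TMM-scaled. Each SE is the log2 change over the root of F. Correlations used log2 CPM with a prior of 0.5. Alternatives used DESeq2 1.42.0, limma 3.58.1 on log2 RPKM with pseudocounts of 1 and 0.1, other scaling, other filters, sample sheets inferred from library numbers, and fits leaving out lines or replicates.

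The 6 members and the gene lists were chosen with earlier results of these data known. Beyond the members, up to 4 genes per list with the smallest p were named, with the 3 genes closest to each member by Pearson's r, and markers used for cell identity. Furin, Rgs5, Kcnj8, Cd3e, Ptprc, Emr1, Cd79a, Epcam, Krt7, Krt18, Muc1, Cdh1, Thy1 and Lum were named outside this rule, after their values were seen. So were Prrx1, Col3a1, Fbln1, Twist2, Cspg4, Des and Myh11. Older symbols were matched through RefSeq synonyms. The scripts were tested on simulated data. Precision is limited by 11178721 to 21333683 counts per library, and no pair of replicates was within counting noise of each other (lowest chi-square per gene 4.21). The genotype of the mice is given in part, and the remainder is not reported here.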

Additional observations from a re-analysis of the deposited data

Results flagged for a closer look

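Among 80 sets of 4 libraries (5 members, 8 lines, 2 cultures), 3 held 1 library far from the others by Dixon's criterion, which chance gives in about 1 of 20 sets. Pdgfa in the T coculture was 24.3 CPM in library 2 against 12.4 to 13.5 in the others. Pdgfc in the V mono-culture was 92.9 CPM in library 3 against 78.5 to 80.1. Pdgfrb in the N coculture was 90.1 CPM in library 1 against 129.6 to 134, and that library also had the lowest Postn of the N cocultures. Without the replicate number concerned, the log2 change was 0.58 for Pdgfa in T (adjusted p = 0.0301), -0.27 for Pdgfc in V (adjusted p = 0.176, no longer called) and 0.62 for Pdgfrb in N (adjusted p = 0.124, not called with it either).

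The response to coculture differed among the lines, in the F-test of line by culture, for Pdgfa (adjusted p = 2.17e-05), Pdgfb (1.04e-07), Pdgfc (6.44e-05), Pdgfra (4.5e-06) and Pdgfrb (5.07e-05), as it did for 71.3% of all genes tested.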

How the results depend on the processing

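Of 860 values under the alternatives, 791 were rated the same as in the main fits. For a log2 change this means the same direction and the same side of the threshold. For an F-test it means the same side of the threshold, and for a count of genes or members a value equal or close to the main one. Pdgfra (log2 change 0.54 to 1.48) and Pdgfrb (1.20 to 1.70) were called higher over the lines under all 22 alternatives, and the 5 tested members differed among the lines and in their response among the lines under every alternative run for those tests. Pdgfb over the lines (0.48, adjusted p = 0.0933) was not called at a threshold of 0.05, and with lines or replicates left out it ran from 0.37 to 0.62. It was not called without line E, M, N or T, nor without replicate 2 or 3. Pdgfa was called higher on the 64 libraries with line as a covariate (0.21) and with line and sheet (0.19), and ran from 0.095 to 0.29 with lines or replicates left out. Pdgfc, near 0, changed sign to 0.0018 with no filter, 0.025 in sheet A alone and 0.0040 with limma at a pseudocount of 0.1, and ran from -0.085 to 0.075 with lines or replicates left out. The count of members called over the lines was 2 to 4 with lines or replicates left out, the 2 without replicate 2 or 3, when Pdgfb was not called. Pdgfd was under the filter without any 1 replicate. Sheet A holds no mono-culture library of K. The cause of these changes was not tested.

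The labels tie no samples by replicate number, and the correlations of same-numbered deviations did not all exceed 0.1, so the numbers were not taken as a pairing. They were -0.107 to 0.440 over 32 pairings (median 0.206), 22 were over 0.1, all those of M and N among them, and 23 were best with their own number, a hint from the data and not from the design. With the replicate block, Pdgfa over the lines was 0.20 and called (adjusted p = 0.0836), and 4 members were called over the lines. Within lines, 27 of 40 tests were called instead of 22. Over all genes, calls within lines numbered 51572 in the main fit and ran from 41809 to 56451 over the alternatives. Whether the added member calls exceed a general gain in calls was not tested. The added calls were Pdgfa lower in E (-0.39, adjusted p = 0.0382), Pdgfa in V, Pdgfb in K, and Pdgfra in H and N.

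Within lines, uncalled values changed sign when 1 replicate was left out, over -0.033 to 0.12 for Pdgfb in H, -0.082 to 0.27 for Pdgfb in KPC1 and -0.028 to 0.12 for Pdgfc in M. Genes called between the clone groups in mono-culture numbered 0, but 1 with no filter, 1 in the coculture libraries, 117 with DESeq2 and 0 to 217 with a clone or replicate left out. For the difference in response they numbered 1, but 187 with DESeq2 and 0 to 48 with a clone or replicate left out, and no alternative called a member. Leaving out a clone or replicate moved the uncalled group difference of Pdgfra over -0.76 to 0.83, and the uncalled differences in response over -0.92 to 0.80 for Pdgfra and -0.30 to 0.56 for Pdgfrb, which was -0.00022 with DESeq2. The deposited counts leave Pdgfd, at 53 reads over 32 mono-culture libraries, below what a test of each line needs.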
